A study of Mus musculus with 12 samples.

Results

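The late activated state of wildtype macrophages was described by setting the samples taken after 24 h of lipopolysaccharide (LPS) against the untreated samples of the same mice. The samples were chosen by their titles alone, and they were 4 of the 12 in the series: 2 after 24 h of LPS and 2 untreated. The series holds RNA from bone marrow cultures of 2 wildtype and 2 Commd1 knockout mice, with an untreated, a 3 h and a 24 h sample from each mouse and each sample hybridised to its own single-colour array. COMMD1 is a subunit of a complex that returns membrane proteins from endosomes to the cell surface, and it is also known to limit NF-kB activity.

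The 24 h group was Commd1 wildtype, treated with 10 ng/mL LPS of Escherichia coli for 24 h. The untreated group was Commd1 wildtype without LPS. All groups, the 3 h and knockout groups included, had been grown for 10 days in 20 ng/mL GM-CSF, a growth factor that drives marrow cells towards macrophages and related myeloid cells. Strain, age, sex and the way the knockout was made are not given in the sources used here. Each group held cells of 2 mice, and the same mice gave every time. The test behind the p-values below did not pair the arrays of a mouse. It measured the spread between the 2 arrays of a group, pooled over all groups, and reaches no further than these few mice.

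LPS is sensed by TLR4 on the macrophage surface. Its adaptor MyD88 drives an early wave through NF-kB and MAP kinases, and its adaptor TRIF drives IRF3 and the gene for interferon beta. Secreted interferon then acts back on the cells through STAT factors and IRF9, while feedback inhibitors shut off much of the early wave, so that a macrophage a day after LPS is known to differ from one in the first hours. Known features of that later state are antiviral and antigen-presenting proteins, acute-phase proteins and a rebuilt metabolism.

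Each value below is a level, the log2 signal of a gene's probe after subtracting that array's 75th percentile, and levels of different genes cannot be set against each other. Where 2 values are given for a group, they belong to mouse 1 and mouse 2 in that order for wildtype groups, and to mouse 3 and mouse 4 for knockout groups. A change is the mean level after 24 h minus the mean untreated level, with its standard error (SE, n = 2 arrays per group), and "rose" and "fell" are used only where limma's test passed an adjusted p of 0.05 over all genes (Benjamini-Hochberg, two-sided, all 12 arrays in the fit). Coordinates of probes are those of the files (mm9).

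The macrophage label was checked on macrophage genes. Csf1r, the receptor for the macrophage growth factor CSF1, had levels of 7.04 and 7.04 after 24 h, against 7.18 and 7.04 untreated, with overlapping groups. Adgre1, which encodes F4/80, had 6.88 and 6.80 after 24 h, against 6.15 and 5.99 untreated. Cd68, Itgam, Mertk, Lyz2, Cd14, Spi1 and Fcgr1 were also well above background on all 4 arrays. Commd1 had levels of 2.89 and 2.85 after 24 h, against 2.72 and 2.79 untreated (adjusted p = 0.705). The knockout arrays gave -0.41 and 0.06 after 24 h, against -0.50 and -0.01 untreated, so the targeted gene was lower in the samples labelled knockout.

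Of 22976 genes tested, 11481 (50%) passed the threshold between 24 h and untreated. There were 5422 that rose (23.6%) and 6059 that fell (26.4%), and 4072 (17.7%) also moved at least 2-fold. Every count of list members that rose or fell, given below, is to be read beside these shares. The median over all genes was -0.04. The direction of the smaller changes depends on scaling: with normexp background correction 9338 genes rose and 5147 fell, and the median moved to 0.18, whereas scaling to the probes detected on all arrays gave 4605 and 7262 with a median of -0.13.

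The share of probes well above background was 67.9% and 65.0% after 24 h, against 72.8% and 71.9% untreated. The arrays of each time lay on a slide of their own, and the effect of the slide and that of the time on LPS cannot be told apart. The slope of signal on the amount of spiked-in control RNA was 0.824 and 0.820 after 24 h, against 0.743 and 0.735 untreated. With all arrays brought to a common slope, an alternative chosen after seeing the data, 7746 genes rose and 6104 fell with a median of 0.12. The part of slide and slope in the results below was not tested further, and lists whose counts move with that rescaling are marked where they are described.

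The 12 largest rises among genes well above background on all 4 arrays included secreted defence proteins, chemokines and interferon-induced genes. Cfb, complement factor B of the alternative pathway (probe at chr17:34993502-34993858), had levels of 5.48 and 5.25 after 24 h, against -6.23 and -6.70 untreated. Its change was 11.83 ± 0.21 (adjusted p = 1.26e-08), which is 3641-fold. Saa3, the serum amyloid A made by macrophages, had 7.97 and 7.80 after 24 h, against -2.77 and -3.60 untreated (11.06 ± 0.27, adjusted p = 4.84e-08). In both genes the gap between groups was many times the distance between the mice of a group.

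Acod1 makes itaconate from a citric acid cycle intermediate. It had levels of 7.17 and 7.09 after 24 h, against -3.62 and -3.70 untreated, a rise of 10.78 ± 0.12 (adjusted p = 3.06e-09). Ccl5, a chemokine that attracts T cells and monocytes, had 7.91 and 7.88 after 24 h, against -0.47 and -1.03 untreated (8.64 ± 0.21). Cxcl10, an interferon-induced chemokine for activated T cells, had 6.58 and 6.52 after 24 h, against -1.71 and -2.28 untreated (8.55 ± 0.16). Groups were far apart in each, and the remaining leading rises were Ifit1bl1, Slfn4, Saa1, Fpr2, Serpina3g, Ly6a and Apol9b, with changes of 7.90 to 9.94.

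Fpr2 encodes a receptor for formylated peptides and for serum amyloid A. It had levels of 3.03 and 3.04 after 24 h, against -5.41 and -4.93 untreated (8.20 ± 0.22, adjusted p = 7.09e-08). Its ligand gene Saa1 rose beside it, with 6.94 and 7.13 after 24 h, against -1.07 and -1.29 untreated. Saa1 and Saa2, Tgtp1 and Tgtp2, the Slfn, Ly6 and Gbp families and the classical class I genes are near copies of each other, so probes may share signal and their separate sizes are uncertain.

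The largest falls took in surface receptors and cell division genes. Gpr34, a receptor for lysophosphatidylserine that marks resident macrophages and microglia, had levels of -5.32 and -5.17 after 24 h, against 1.05 and 0.64 untreated. This was a fall of -6.09 ± 0.19 (68.1-fold, adjusted p = 1.61e-07). Gprc5c, an orphan receptor, had -2.65 and -3.26 after 24 h, against 2.38 and 1.33 untreated. Acot1, which cleaves fatty acyl-CoA, had -5.64 and -5.42 after 24 h, against -0.75 and -0.74 untreated. The 2 groups were separate in all of these, although the untreated mice differed from each other in Gprc5c.

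The other leading falls were Aspm, Il1rl1, Frat2, Sapcd2, Sort1, Mamdc2, Gm4788, Rasgrp3 and Cdc20, with changes between -4.14 and -4.62. Il1rl1 encodes ST2, the receptor for interleukin-33, and had -5.95 and -5.99 after 24 h, against -1.49 and -1.21 untreated. Sort1 encodes sortilin, which sorts proteins between the Golgi and lysosomes, and had -2.84 and -3.07 after 24 h, against 1.57 and 1.19 untreated.

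**Figure D1:**
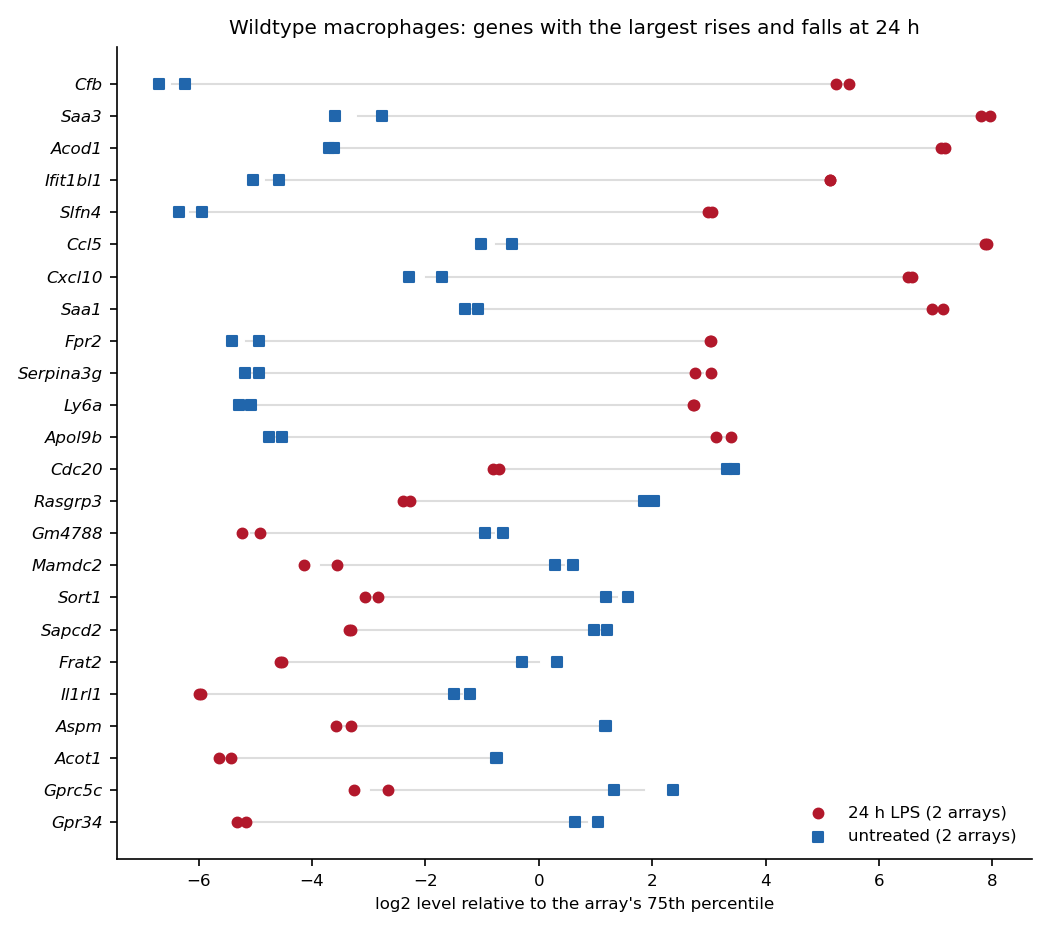
Levels of the 12 genes with the largest rises and the 12 with the largest falls, each as a row with the 2 arrays after 24 h of LPS (red circles) and the 2 untreated arrays (blue squares); grey lines join the group means and the x axis is the log2 level relative to the array's 75th percentile. The groups are separate in every row, from Cfb at the top (5.48 and 5.25 after 24 h, -6.23 and -6.70 untreated) to Gpr34 at the bottom (-5.32 and -5.17, against 1.05 and 0.64).

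For genes at background on both arrays of the lower group, the size is given as a bound against the lowest signal that the arrays detected. Ifnb1, which encodes interferon beta, had levels of 1.03 and 0.74 after 24 h and was not well above background untreated (processed levels -9.67 and -9.67). It was at least 322-fold higher after 24 h (adjusted p = 3.33e-08). Slfn1 was at least 238-fold higher and Il23r, a subunit of the interleukin-23 receptor, at least 171-fold higher. Ifi213, Rasgrp1, Lrrc4, BC023105 and Ly6f followed with bounds of 86.0-fold to 169-fold.

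In the other direction Slco2b1, an organic anion transporter of resident macrophages, had 0.82 and 0.03 untreated and was not well above background after 24 h (-7.66 and -7.96). It was at least 153-fold lower after 24 h (adjusted p = 4.60e-07). Smpd3, a neutral sphingomyelinase, was at least 35.7-fold lower. Samd4, Plb1, Itga8, Ppp1r9a, Pde1c and Adam22 had bounds of 11.1-fold to 16.1-fold.

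The antiviral interferon-stimulated genes rose almost throughout. Of 34 tested members, 33 rose and 1 fell, with a median change of 3.54, beside 23.6% of all genes that rose and a median of -0.04. Ifi44, an interferon-induced cytoplasmic protein, had 4.63 and 4.53 after 24 h, against -3.37 and -3.24 untreated (7.89 ± 0.92, adjusted p = 0.000196). Oasl1, which represses translation of Irf7 in the mouse, had 6.77 and 6.78 after 24 h, against -0.99 and -0.97 untreated (7.75 ± 0.12, adjusted p = 1.19e-08). Ifit1, which binds viral RNA lacking a self cap, had 5.29 and 5.11 after 24 h, against -2.09 and -2.20 untreated (7.34 ± 0.17). Rsad2, the antiviral enzyme viperin, had 6.91 and 6.96 after 24 h, against 0.25 and -0.09 untreated (6.85 ± 0.16).

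The exception was Ifi27, with 1.69 and 1.69 after 24 h, against 4.53 and 4.46 untreated, a fall of -2.80 ± 0.11 (adjusted p = 4.55e-07). After 3 h its levels were 4.65 and 4.59, so the lower level was seen after 24 h only among the times sampled. The related Ifi27l2a, measured by its own probe, rose by 1.36.

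All 16 interferon-inducible GTPases rose, with a median change of 4.10. These proteins coat and disrupt vacuoles that hold pathogens. Gbp4 rose by 6.90 ± 0.30, with 2.62 and 2.33 after 24 h, against -4.01 and -4.83 untreated. Tgtp2 had 7.56 and 7.51 after 24 h, against 1.29 and 0.86 untreated (6.45 ± 0.16). Gbp2 had 5.75 and 6.11 after 24 h, against 0.04 and -0.03 untreated (5.93 ± 0.18). The smallest rise was that of Gbp8 at 3.03, so no member came near the median of all genes.

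The promoters of these genes can be set beside the values. RefSeq promoter windows (GRCm38.p6, from 250 bases before to 50 after each start) were searched on both strands for an interferon-stimulated response element, read as GAAA, any 2 bases and GAAA, the site bound by STAT factors with IRF9 and by other IRF factors. Of 26 antiviral genes with a window, 13 (50%) held them, and of 10 GTPases, 9 (90.0%), against 1079 of all 27025 genes (3.99%). Among cytokine genes 1 of 18 (5.56%) held them, and among NF-kB genes 0 of 21. The stretches below are those of genes of this kind with the largest rises that hold the letters, 80 bases each, 5′ to 3′ on the gene's strand, with matches in capitals (TTTC, any 2 bases and TTTC where the match lies on the other strand). No match shown shares bases with those of the other motifs shown further on.
Ifit1 (chr19:34640769-34640848, plus strand): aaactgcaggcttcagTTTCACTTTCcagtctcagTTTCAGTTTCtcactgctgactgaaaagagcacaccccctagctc
Ifit3 (chr19:34583372-34583451, plus strand): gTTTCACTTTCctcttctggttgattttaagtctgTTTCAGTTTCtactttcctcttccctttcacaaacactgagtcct
Rsad2 (chr12:26456528-26456607, minus strand): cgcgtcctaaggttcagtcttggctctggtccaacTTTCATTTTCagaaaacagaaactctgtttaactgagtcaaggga
Tgtp2 (chr11:49064238-49064317, minus strand): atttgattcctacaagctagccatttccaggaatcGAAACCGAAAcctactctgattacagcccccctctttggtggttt
Gbp2 (chr3:142620569-142620648, plus strand): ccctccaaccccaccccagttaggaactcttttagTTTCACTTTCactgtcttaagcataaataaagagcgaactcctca

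Ifit1 and Ifit3, neighbours on chromosome 19, each held 2 matches within the stretch, and the other 3 held 1. The last match ended 75 bases before the start in Ifit1, 112 in Ifit3, 110 in Rsad2, 60 in Tgtp2 and 49 in Gbp2. A match of letters is a description of the window and not evidence that a factor was bound there.

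The Schlafen and Ly6 families rose too, in all 11 tested members, with a median of 4.97. Slfn4 had 3.06 and 2.98 after 24 h, against -5.94 and -6.35 untreated (9.16 ± 0.19, adjusted p = 2.68e-08). Ly6a, the surface antigen Sca-1, had 2.75 and 2.72 after 24 h, against -5.29 and -5.08 untreated (7.92 ± 0.22). Ly6e, a surface protein that restricts virus entry, had 5.30 and 5.37 after 24 h, against 0.24 and 0.49 untreated. In each the mice of a group lay close together and the groups far apart.

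Of 15 nucleic acid sensors tested, 12 rose, with a median of 2.48. Zbp1, a sensor of Z-form nucleic acid, rose by 4.87 ± 0.14, with 4.77 and 4.67 after 24 h, against -0.11 and -0.20 untreated. The RNA helicases Ddx58 (RIG-I), Ifih1 (MDA5) and Dhx58 (LGP2) rose by 3.52, 3.31 and 2.94. The member counted as lower, Aim2, changed by -0.24 (adjusted p = 0.0446), and that call was lost without any 1 of the 4 arrays. The adaptors Mavs and Sting1 did not pass the threshold, with changes of 0.06 and -0.0036.

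Among 16 IRF and STAT factors 9 rose and 3 fell (median 1.00). Irf7, the factor that amplifies interferon production, had 5.47 and 5.57 after 24 h, against -2.07 and -1.64 untreated (7.38 ± 0.20, adjusted p = 7.34e-08). Stat2, which interferon receptors activate, rose by 3.12 ± 0.15. Falls were seen for Stat4 (-2.30 ± 0.20), for Irf4 (-2.04 ± 0.21) and, smaller, for Stat5b (-0.42). Irf3 and Irf8 did not pass the threshold. The levels of Irf4 were -5.41 and -5.54 after 24 h, against -3.27 and -3.60 untreated, so the groups were separate.

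Antigen presentation through MHC class I rose in every tested member, 19 of 19, with a median of 1.67. The list covers the class I heavy chains, their light chain B2m, the peptide transporter, loading factors and the immunoproteasome, which cuts proteins into peptides for loading. Tap1, a subunit of the transporter, had 2.26 and 2.40 after 24 h, against -0.78 and -0.55 untreated (3.00 ± 0.14, adjusted p = 1.29e-06). Nlrc5, the transactivator of class I genes, had 3.70 and 3.68 after 24 h, against 1.51 and 1.26 untreated (2.30 ± 0.14). Psmb8, an immunoproteasome subunit, had 5.50 and 5.45 after 24 h, against 3.19 and 3.21 untreated (2.28 ± 0.36). The rises in the list ran down to 0.77, with B2m at 1.17 and the heavy chains H2-K1 and H2-D1 at 1.05 and 0.93.

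The response element letters stood in 4 of 16 class I promoters (25.0%), among them those of B2m and H2-T23, a non-classical heavy chain. B2m had a mean of 7.11 after 24 h, against 5.94 untreated, and H2-T23 had 7.67 and 7.67 after 24 h, against 6.23 and 6.15 untreated. Their stretches are shown because they are the class I windows with the letters and the largest rises on the rule used.
B2m (chr2:122147513-122147592, plus strand): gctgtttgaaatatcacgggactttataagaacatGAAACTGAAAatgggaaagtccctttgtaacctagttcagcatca
H2-T23 (chr17:36032781-36032860, minus strand): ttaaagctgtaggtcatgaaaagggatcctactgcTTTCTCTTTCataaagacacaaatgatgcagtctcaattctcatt

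MHC class II genes rose in 8 of 12 members, and the other 4 did not pass the threshold (median 1.09). H2-Ab1, the beta chain of I-A, had 2.64 and 2.53 after 24 h, against 0.50 and -0.11 untreated (2.39 ± 0.41, adjusted p = 0.00158). Its partner H2-Aa had -1.46 and -1.45 after 24 h, against -3.16 and -3.85 untreated (2.05 ± 0.38). Cd74, the invariant chain, had 2.07 and 2.11 after 24 h, against -0.06 and -0.08 untreated (2.16 ± 0.30). Ciita, the master regulator of class II transcription, gave -4.30 and -4.20 after 24 h, against -3.40 and -4.21 untreated, and did not pass the threshold (adjusted p = 0.329). The class II chains named here were thus higher after 24 h, while the 24 h and untreated groups of Ciita overlapped. After 3 h, however, Ciita had -1.81 and -1.84, above untreated by 1.98 ± 0.35. Its difference of 24 h minus 3 h was -2.43 ± 0.35, and both differences passed the threshold.

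Costimulatory and checkpoint ligands were mixed, with 7 of 15 that rose and 5 that fell. Cd274, which encodes the inhibitory ligand PD-L1, had 5.32 and 5.42 after 24 h, against 0.71 and 0.66 untreated (4.68 ± 0.15). Cd86, a ligand for CD28, had 1.12 and 1.24 after 24 h, against -1.24 and -1.19 untreated (2.40 ± 0.20). Its relative Cd80 moved the other way, with 0.93 and 0.89 after 24 h, against 2.15 and 2.03 untreated (-1.18 ± 0.11, adjusted p = 5.32e-05). Cd83 had -0.02 and 0.01 after 24 h, against 2.16 and 2.25 untreated (-2.21 ± 0.10). Cd40, the receptor for T cell help, rose by 3.31 ± 0.14, and Tnfsf14 and Havcr2 fell by 2.23 and 1.59.

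Cytokine genes rose in 18 of 25 members, and 2 fell (median 1.63, or 1.16 with the members at background held at their bounds). Il1rn, the antagonist of interleukin-1, had 3.97 and 3.87 after 24 h, against -1.86 and -1.59 untreated (5.64 ± 0.26). Il1b had 0.46 and 0.54 after 24 h, against -4.80 and -5.14 untreated (5.47 ± 0.35). Il6 had -3.79 and -3.60 after 24 h and was not well above background untreated, at least 13.5-fold higher after 24 h. Tnfsf10, which encodes the death ligand TRAIL, had 2.48 and 2.17 after 24 h, against -2.89 and -3.28 untreated (5.41 ± 0.18). Il10 and Tnf rose (Il10 by 3.76), Il16 fell by 1.35, and Tslp was not well above background after 24 h.

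Chemokine genes rose in 15 of 22 members and fell in 1. Cxcl9, a ligand of CXCR3 that is induced by interferon, had 2.94 and 3.39 after 24 h, against -5.82 and -8.49 untreated (10.32 ± 0.76, adjusted p = 1.48e-05). Only 1 of its untreated arrays, that of mouse 1, was well above background, so the size of this change rests partly on background signal. Ccl12 had 5.10 and 5.33 after 24 h, against -1.90 and -0.93 untreated (6.63 ± 0.30), and Ccl8 had 5.40 and 5.48 after 24 h, against -0.96 and -0.94 untreated (6.39 ± 0.21). Both attract monocytes through CCR2 and related receptors. The membrane-bound chemokine Cx3cl1 was the member that fell, with -4.76 and -4.63 after 24 h, against -3.09 and -2.92 untreated.

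Receptors for chemokines went both ways, 3 up and 4 down among 10, beside 23.6% and 26.4% of all genes. Cxcr4, the receptor that retains cells in the marrow, had -3.58 and -3.67 after 24 h, against 0.26 and -0.16 untreated (-3.68 ± 0.23, adjusted p = 5.59e-06). Cx3cr1, the receptor of Cx3cl1, had -6.41 and -6.53 after 24 h, against -3.67 and -3.13 untreated (-3.07 ± 0.25). Its 24 h levels lay near the lowest signal detected on those arrays (-7.01 and -6.66), so the size is uncertain. Ccr2, the receptor for Ccl2, fell by 0.88 ± 0.13.

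NF-kB subunits and the inhibitors that NF-kB itself induces were higher in 19 of 24 members (median 1.35). Nfkbia, the inhibitor IkB alpha, had 4.96 and 4.87 after 24 h, against 2.56 and 2.46 untreated (2.40 ± 0.11). Tnfaip3, the ubiquitin-editing enzyme A20, had 3.63 and 3.52 after 24 h, against 1.25 and 1.27 untreated (2.31 ± 0.15). The subunits themselves differed: Relb and Nfkb2 rose by 1.38 and 1.32, while Nfkb1 (0.05, adjusted p = 0.803) and Rela (0.26) did not pass the threshold. The deubiquitinase Cyld fell by 1.25 ± 0.13.

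Inhibitors of receptor and cytokine signals rose in 10 of 16 members and fell in 2. Il18bp, a decoy for interleukin-18, had 4.36 and 4.42 after 24 h, against -1.21 and -1.31 untreated (5.65 ± 0.19). Socs1, the inhibitor of JAK kinases downstream of interferon receptors, had 3.20 and 3.16 after 24 h, against -1.83 and -1.89 untreated (5.04 ± 0.10, adjusted p = 2.67e-08). Socs3 had 4.26 and 4.22 after 24 h, against 0.45 and -0.13 untreated (4.08 ± 0.23). Sigirr, which dampens interleukin-1 and Toll-like receptors, fell by 1.42 beside Il1rl1.

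The parts of the LPS receptor moved in both directions. Tlr4 rose by 0.38, its partner Ly96 (MD-2) by 1.04, and Cd14, which hands LPS to them, had 3.18 and 3.04 after 24 h, against 3.42 and 3.60 untreated (-0.40 ± 0.12, adjusted p = 0.0250). Tlr2 did not pass the threshold, with 2.14 and 1.91 after 24 h, against 1.80 and 1.57 untreated. Of 19 Toll-like receptors and adaptors 12 rose and 3 fell. Cd180 and Tlr1 had the largest rises (1.84 and 1.65), and the kinases Irak1 and Irak4 fell by 0.62 and 0.59.

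Genes of inflammasomes and of pyroptosis, the lytic death they trigger, rose in 8 of 12 members and fell in 2, with 2 not past the threshold. Casp4 (caspase-11), the intracellular LPS sensor, had 5.19 and 5.09 after 24 h, against 2.33 and 2.30 untreated (2.83 ± 0.11). Casp1, which matures interleukin-1 beta, had 6.57 and 6.50 after 24 h, against 4.37 and 4.48 untreated (2.11 ± 0.09). Gsdmd, the pore that both caspases open, rose by 1.83 ± 0.09. The falls were those of Txnip, a thioredoxin-binding protein (-1.70), and of the sensor Nlrp1b (-1.22). Nlrp3, the sensor that assembles the best known inflammasome, did not pass the threshold, with -2.77 and -2.80 after 24 h, against -3.15 and -3.00 untreated (adjusted p = 0.0981).

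Complement genes rose more often than they fell. Of 21 genes 12 rose and 4 fell (median 0.52). C3, the central component, had 6.32 and 6.44 after 24 h, against -0.66 and -0.75 untreated (7.08 ± 0.17, adjusted p = 4.84e-08), beside Cfb above. C2, C4b, C1s1 and C1ra of the classical pathway rose by 1.72 to 2.01. Cd55, an inhibitor of complement on the cell surface, had -1.66 and -1.46 after 24 h, against -5.68 and -5.53 untreated (4.05 ± 0.16).

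Acute-phase and antimicrobial genes rose in 15 of 21 members and fell in 2. Lcn2, which binds bacterial iron carriers, had 2.38 and 2.38 after 24 h, against -2.53 and -2.86 untreated (5.08 ± 0.17). Hp, haptoglobin, had 1.68 and 1.28 after 24 h, against -1.60 and -2.29 untreated (3.42 ± 0.32). Saa2 was at least 12.5-fold higher. Slc40a1, ferroportin, the iron exporter, fell: it had 2.17 and 2.55 after 24 h, against 4.92 and 4.76 untreated (-2.48 ± 0.18). Hamp, which encodes the peptide that removes ferroportin from the surface, was not well above background on any of the 4 arrays.

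**Figure D2:**
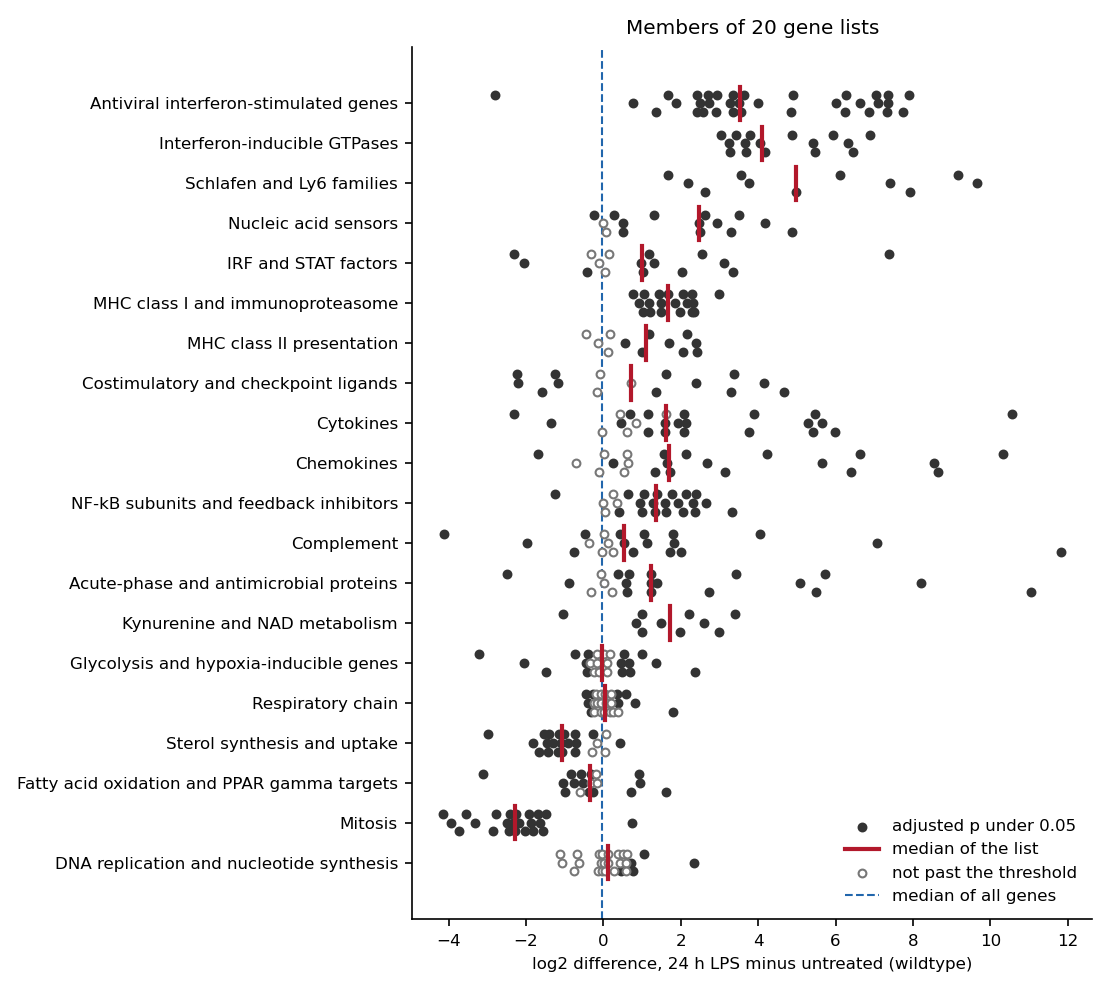
Change (log2, 24 h LPS minus untreated, wildtype) of every tested member of 20 gene lists, 1 point per gene, filled where the adjusted p was under 0.05, with a red bar at the list's median and a dashed line at the median of all genes (-0.04). Interferon lists lie to the right (median 3.54 for antiviral genes and 4.10 for GTPases), mitosis (-2.27) and sterol synthesis (-1.08) to the left, and the respiratory chain at the dashed line (0.04).

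Scavenger and pattern receptors went both ways. Marco, a scavenger receptor for bacteria, had 5.59 and 5.75 after 24 h, against -0.55 and 0.12 untreated (5.89 ± 0.24, adjusted p = 5.91e-07). Clec4e, the mycobacterial glycolipid receptor Mincle, had 4.02 and 3.94 after 24 h, against -1.10 and -0.73 untreated (4.90 ± 0.16). Stab1, a scavenger receptor of alternatively activated and tissue macrophages, had 2.64 and 2.82 after 24 h, against 4.69 and 4.48 untreated (-1.85 ± 0.11). Of 17 members 7 rose and 4 fell, beside 23.6% and 26.4% of all genes.

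Among Fc receptors, TREM family members and Siglecs 11 of 19 rose and 5 fell. Fcgr1, the high-affinity IgG receptor, had 6.40 and 6.29 after 24 h, against 3.04 and 2.92 untreated (3.37 ± 0.14). Fcgr4 had 5.37 and 5.17 after 24 h, against 2.73 and 2.38 untreated (2.71 ± 0.17). Fcgr2b, the inhibitory receptor, rose by 0.89, and Fcgr3 did not pass the threshold (-0.22). Trem1, an amplifier of inflammation, had -0.88 and -0.68 after 24 h, against 2.43 and 2.32 untreated (-3.15 ± 0.12, adjusted p = 3.47e-07), whereas Trem3 rose by 2.49 ± 0.31.

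Adhesion genes fell in 9 and rose in 6 of 19 members. Itgal, the alpha chain of LFA-1, had -0.72 and -0.63 after 24 h, against -2.83 and -3.06 untreated (2.27 ± 0.16), and its ligand gene Icam1 rose by 1.37. Cd9, a tetraspanin, had 3.07 and 3.00 after 24 h, against 5.49 and 5.40 untreated (-2.41 ± 0.18), and Itgb3 fell by 2.61 ± 0.34. Itgax, which encodes CD11c, had 0.35 and 0.28 after 24 h, against 2.33 and 2.27 untreated (-1.99 ± 0.26). Itgam, which encodes CD11b, did not pass the threshold (0.02).

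Matrix proteases were divided in the same way, with 8 of 19 members that rose and 4 that fell. Mmp14, a membrane-bound collagenase, had -0.27 and -0.46 after 24 h, against -5.97 and -5.95 untreated (5.60 ± 0.22). Mmp25, the leukocyte-type membrane protease, was at least 34.3-fold higher. Secreted Mmp9 and Mmp12 fell by 1.49 and 1.42.

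Genes of arginine and nitric oxide metabolism rose in 7 of 14 members and fell in 2. Nos2, the inducible synthase, had 1.46 and 1.54 after 24 h, against -1.17 and -1.06 untreated (2.61 ± 0.09, adjusted p = 2.09e-07). Ass1, which regenerates arginine from citrulline, had 1.45 and 1.69 after 24 h, against -1.35 and -0.94 untreated (2.71 ± 0.20). Gch1, which makes the cofactor of the synthase, rose by 2.16 and the transporter Slc7a2 by 2.35. Both arginases, which compete for the substrate of the synthase, were also higher. Arg1 rose by 1.40 ± 0.27, from untreated levels of -7.03 and -6.87. These lay near the lowest signal detected on those arrays (-7.36 and -7.53). Arg2, with -5.74 and -5.92 after 24 h, was not well above background untreated and was at least 3.06-fold higher (adjusted p = 1.23e-05). The members that fell were Asl by 0.25 and Spr by 0.75.

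Acod1 and the genes of the citric acid cycle held 3 of 20 members that rose, namely Acod1, Sdhb and Ogdh, 8 that fell and 9 that did not pass the threshold. Their median of -0.08 stood beside -0.04 for all genes, of which 26.4% fell. The largest falls were those of Suclg2, a subunit of succinyl-CoA ligase (-1.58 ± 0.11), of Idh1, the cytosolic isocitrate dehydrogenase (-1.55 ± 0.16), of Fh1, fumarase (-1.25), and of Idh2 (-1.12). Sdhb, the iron-sulphur subunit of succinate dehydrogenase, had 6.29 and 6.30 after 24 h, against 5.39 and 5.47 untreated (0.86 ± 0.09). The other subunits Sdha, Sdhc and Sdhd did not pass the threshold, with changes of -0.09, -0.07 and 0.09.

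NAD and kynurenine genes rose in 9 of 10 members (median 1.73, or 1.39 with Ido2 at its bound). Cd38, an enzyme that consumes NAD, had 2.15 and 1.97 after 24 h, against -0.90 and -0.95 untreated (2.98 ± 0.24). Its relative Bst1 had 3.58 and 3.35 after 24 h, against 0.91 and 0.83 untreated (2.59 ± 0.10). Nampt, which salvages NAD, rose by 1.49 and Kynu, kynureninase, by 2.21, with only 1 of its untreated arrays well above background. Kmo, which hydroxylates kynurenine, was the member that fell (-1.04 ± 0.20).

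Enzymes of lipid mediators showed opposite changes in related genes. Ptgs2, the inducible cyclooxygenase, had -4.64 and -4.52 after 24 h and was at background untreated, at least 7.30-fold higher after 24 h. Ptgs1, the constitutive cyclooxygenase, had -1.17 and -1.06 after 24 h, against 1.82 and 1.55 untreated (-2.80 ± 0.21). Alox5, the first enzyme of leukotriene synthesis, had -6.37 and -5.98 after 24 h, against -2.38 and -2.06 untreated (-3.95 ± 0.37, adjusted p = 5.54e-05). The lowest signals detected on the 24 h arrays were not far below (-7.01 and -6.66). The list held 4 members that rose and 4 that fell among 12, beside 23.6% and 26.4% of all genes. On the common spike-in slope 7 members fell.

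Sterol synthesis genes fell in most members. Of 23 members 18 fell and 1 rose, with a median of -1.08, beside 26.4% of all genes that fell. Idi1, which makes the isoprene building block of sterols usable, was lower after 24 h than untreated by a log2 difference of -1.66 ± 0.19 (limma's adjusted p = 0.000176), with no overlap between the groups. Cyp51, which demethylates lanosterol, had -2.28 and -2.44 after 24 h, against -0.80 and -0.28 untreated (-1.82 ± 0.18). Hmgcs1, near the start of the pathway, had 2.98 and 2.87 after 24 h, against 4.03 and 4.14 untreated (-1.16 ± 0.12). Srebf2, the transcription factor of the pathway, rose by 0.43 ± 0.09, but did not pass with its probes averaged or on the common spike-in slope.

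The letters TCACNCCAC, a form of the sterol response element bound by SREBP factors, stood in 1.44% of all genes with a window and in 1 of 15 sterol genes, Hmgcs1. Its stretch is shown as the sterol gene that held the letters, in capitals.
Hmgcs1 (chr13:119690179-119690258, plus strand): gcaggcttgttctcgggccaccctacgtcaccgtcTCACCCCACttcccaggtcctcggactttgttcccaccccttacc

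Cholesterol efflux genes went both ways. Nr1h3, which encodes the sterol-sensing receptor LXR alpha, had a mean of 4.51 after 24 h, against 1.44 untreated (3.07 ± 0.09, adjusted p = 1.28e-07). Ch25h, which makes 25-hydroxycholesterol, an inhibitor of SREBP processing and of virus entry, rose by 3.91 ± 0.33. The exporters diverged, with Abcg1 at 0.80 ± 0.15 and Abca1 at -0.76 ± 0.22 (adjusted p = 0.0220). The 16 members held 5 that rose and 3 that fell, beside 23.6% and 26.4% of all genes. On the common spike-in slope 3 members rose and 7 fell.

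Fatty acid oxidation and PPAR gamma targets fell in 10 of 18 members and rose in 4. Angptl4, an inhibitor of lipoprotein lipase, had -2.84 and -2.63 after 24 h, against 0.67 and 0.07 untreated (-3.10 ± 0.35). Acadm, the medium-chain acyl-CoA dehydrogenase, had 2.16 and 2.17 after 24 h, against 3.22 and 3.18 untreated (-1.03 ± 0.09), and the trifunctional subunits Hadhb and Hadha fell by 0.98 and 0.53. The lipid-binding genes Fabp4 and Plin2 rose by 0.95 and 0.93.

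Glycolysis and hypoxia-inducible genes went both ways, with a median of -0.05. Of 24 members 8 rose and 7 fell, beside 23.6% and 26.4% of all genes. Without the 24 h array of mouse 1 or of mouse 2 the falls numbered 3 or 4. The largest rise was that of Pfkfb3, which makes the activator of phosphofructokinase, had 3.84 and 3.64 after 24 h, against 1.58 and 1.16 untreated (2.37 ± 0.21), and Hk3 and Hk2 rose by 1.35 and 1.00. Ndrg1, a hypoxia-inducible gene, had -0.13 and -0.21 after 24 h, against 3.06 and 3.03 untreated (-3.21 ± 0.08, adjusted p = 4.84e-08). Hif1a did not pass the threshold (-0.23).

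Subunits of the respiratory chain stayed near the median of all genes, with 15 of 24 members not past the threshold, 5 that rose and 4 that fell (median 0.04). The falls numbered 0 to 2 without any 1 of the 4 arrays and 14 on the common spike-in slope, where 1 member rose. Cycs, cytochrome c, stood out with 5.80 and 5.78 after 24 h, against 3.77 and 4.19 untreated (1.81 ± 0.15, adjusted p = 2.86e-05).

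Genes of the unfolded protein and ATF4 response went both ways. Ddit3, the stress factor CHOP, had 2.99 and 3.18 after 24 h, against 0.31 and 0.32 untreated (2.77 ± 0.10). Its target Trib3 rose by 2.02 ± 0.24. Atf4, the factor that induces them, rose by 1.12 ± 0.11. Of the genes named for folding and degradation in the endoplasmic reticulum, Hspa5 (BiP) changed by 0.28, Dnajc3 by -0.84 and Herpud1 by -1.44 ± 0.13. The list held 7 that rose and 5 that fell among 20, beside 23.6% and 26.4% of all genes. On the common spike-in slope 10 members fell.

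Oxidative stress genes were divided in a like way. Sod2, the mitochondrial superoxide dismutase, had 7.44 and 7.39 after 24 h, against 4.11 and 4.15 untreated (3.29 ± 0.10). Prdx5 rose by 2.24 ± 0.12 and Hmox1, heme oxygenase 1, by 1.69 ± 0.12. G6pdx rose by 0.45. Nqo1 and Gclc fell by 1.91 and 1.02, catalase (Cat) fell by 1.26, and Nfe2l2, which encodes NRF2, fell by 0.53. In all 6 of 20 rose and 7 fell, beside 23.6% and 26.4% of all genes.

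Genes of mitosis fell nearly throughout. Of 23 mitosis genes 22 fell and 1 rose (median -2.27). Cdc20, an activator of the anaphase-promoting complex, had -0.81 and -0.70 after 24 h, against 3.32 and 3.44 untreated (-4.14 ± 0.23, adjusted p = 3.07e-06). Ccnb2, cyclin B2, had -0.07 and 0.02 after 24 h, against 3.44 and 3.63 untreated (-3.56 ± 0.26). Plk1, a mitotic kinase, had -0.17 and -0.09 after 24 h, against 3.06 and 3.32 untreated (-3.32 ± 0.28). The member that rose, Tpx2, is measured by probes that disagree: its change was 0.73 ± 0.18 by the probe with the highest signal and -0.17 with its probes averaged (adjusted p = 0.486).

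Of 26 genes of DNA replication and nucleotide synthesis 5 rose and 0 fell by limma (2 lower at an unadjusted p under 0.05), with a median of 0.12. With the mouse as a block 8 rose and 5 fell. Tyms, thymidylate synthase, had -0.77 and -0.67 after 24 h, against -3.04 and -3.07 untreated (2.34 ± 0.13, adjusted p = 2.75e-06). Pcna, the replication clamp, had 6.13 and 6.19 after 24 h, against 5.42 and 5.76 untreated, and did not pass the threshold (adjusted p = 0.0668). Without the untreated array of mouse 1, 2 members rose, and 3 without either 24 h array. The difference between the lists themselves was not tested.

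Promoters of mitosis genes often carry the letters TTTGAA of the cell-cycle homology region, the site of the DREAM and MuvB complexes that hold these genes off outside division. They stood in 13 of 18 mitosis genes with a window (72.2%) and in 3 of 21 replication genes (14.3%), against 20.2% of all genes with a window. Cdc20 and Ccnb2, chosen for display after their values were seen, are mitosis genes with large falls whose windows hold the letters, here in capitals.
Cdc20 (chr4:118437344-118437423, minus strand): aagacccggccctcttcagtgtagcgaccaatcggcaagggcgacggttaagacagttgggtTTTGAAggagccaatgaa
Ccnb2 (chr9:70421677-70421756, minus strand): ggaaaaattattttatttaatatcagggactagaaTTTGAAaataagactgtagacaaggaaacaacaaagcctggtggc

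**Figure D3:**
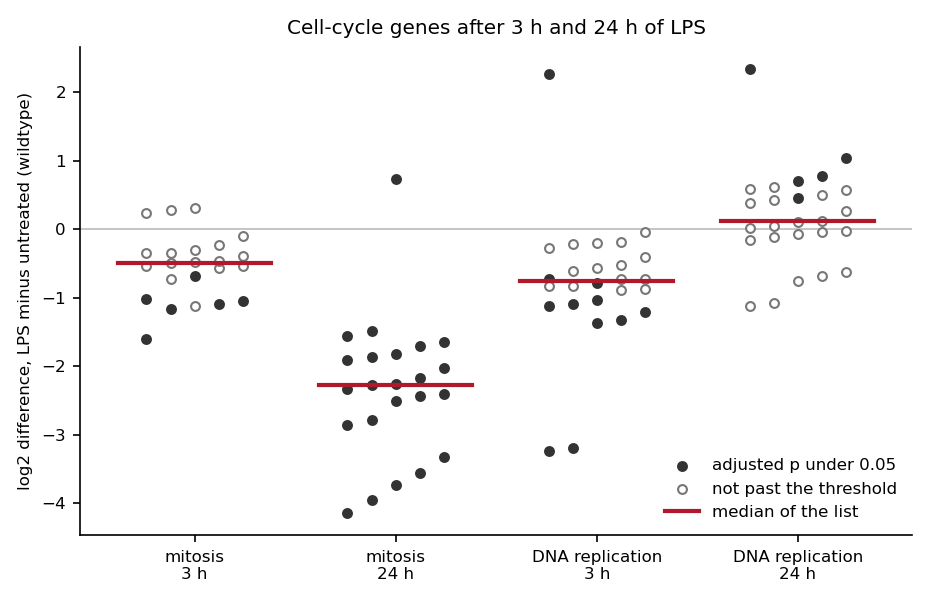
Changes (log2, LPS minus untreated, wildtype) of 23 mitosis genes and 26 DNA replication genes after 3 h and 24 h, 1 point per gene, filled where the adjusted p was under 0.05, with a red bar at the median; the 3 h and 24 h values share the untreated arrays. Mitosis genes lie at a median of -0.49 after 3 h and -2.27 after 24 h, replication genes at -0.75 and 0.12.

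Between 3 h and untreated 46.6% of all genes passed the threshold, 23.2% higher and 23.4% lower after 3 h. After 3 h, 6 mitosis genes and 10 replication genes had fallen (medians -0.49 and -0.75). Directly between the times, 20 mitosis genes were lower after 24 h than after 3 h, and 14 replication genes were higher. A list of 18 genes that holds cell-cycle inhibitors together with G1 cyclins and genes of the MYC axis had 6 that rose and 9 that fell. The rises include the D-type cyclins Ccnd1, Ccnd2 and Ccnd3, which promote division, at 1.37, 2.78 and 1.36. The falls include the inhibitors Cdkn1b (p27) at -1.37 ± 0.15 and Cdkn2c (p18) at -1.98, and also Cdkn1c, Cdkn2a and Cdkn2b. The inhibitor Cdkn2d, however, rose by 0.58, and Cdkn1a did not pass the threshold (0.38). Mxd1, an antagonist of MYC, had 4.44 and 4.39 after 24 h, against 0.93 and 0.48 untreated (3.71 ± 0.18), and Myc itself fell by 1.17.

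Survival and death genes rose in 14 of 21 members and fell in 2. Mlkl, the executor of necroptosis, had 4.35 and 4.26 after 24 h, against 1.09 and 1.17 untreated (3.17 ± 0.11, adjusted p = 2.04e-07). Cflar, which blocks caspase-8, had 2.37 and 2.27 after 24 h, against -0.99 and -0.94 untreated (3.28 ± 0.19). The falls were those of the death promoters Bmf (-2.52 ± 0.36) and Bbc3 (-1.25). Genes that promote and genes that block death thus both rose.

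Macrophage identity genes rose in 13 of 25 members and fell in 5. Siglec1, the sialic acid receptor CD169, had 2.19 and 2.34 after 24 h, against -1.21 and -1.15 untreated (3.45 ± 0.15). Mrc1, the mannose receptor, had 2.58 and 2.63 after 24 h, against 5.30 and 5.35 untreated (-2.72 ± 0.11, adjusted p = 6.08e-07). The other members that fell were Gpr34, Slco2b1, Cx3cr1 and Cebpa, while Csf1r, Mertk and Maf did not pass the threshold. Without the 24 h array of mouse 1, 8 members rose, and on the common spike-in slope 9 fell.

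Genes of alternative activation went both ways, with 4 of 13 members that fell and 2 that rose, beside 26.4% and 23.6% of all genes. Their median was 0.25, or 0.02 with the members at background held at their bounds. Egr2, a factor that interleukin-4 induces, had -2.04 and -2.13 after 24 h, against 1.77 and 1.90 untreated (-3.91 ± 0.16, adjusted p = 4.87e-07). Clec10a, a galactose lectin, had 0.62 and 0.56 after 24 h, against 3.11 and 2.82 untreated (-2.38 ± 0.26). Its neighbour family member Mgl2 rose by 1.28 ± 0.09, and with the mouse as a block 4 members rose. Chil3 did not pass the threshold (0.94, adjusted p = 0.0627).

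Lysosomal genes rose in 16 of 26 members and fell in 6, but this count rests on scaling: quantile normalization gave 8 rises, and the common spike-in slope 7 rises and 14 falls. Ctsc, the protease that activates granule serine proteases, had the largest change, with 5.36 and 5.31 after 24 h, against 2.89 and 3.14 untreated (2.32 ± 0.18). Atp6v0d2, a proton pump subunit of osteoclasts and macrophages, fell by 1.11 ± 0.12.

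Markers of other cell types that a GM-CSF culture can hold were examined as a whole. Of 12 dendritic cell markers tested 3 rose and 2 fell, and their summed level was 5.67 and 5.78 after 24 h, against 5.79 and 5.73 untreated. Cd24a, which precursors and some dendritic cells carry, changed by -3.92 and Cadm1 by -0.78. Zbtb46, a factor of classical dendritic cells, had -2.32 and -2.24 after 24 h, against -4.89 and -5.12 untreated (2.73 ± 0.18). Flt3, the receptor that defines their precursors, did not pass the threshold (0.15). Clec9a, not well above background untreated, rose and was at least 3.29-fold higher after 24 h (adjusted p = 0.0365). Xcr1 and Cd209a did not pass the signal filter in any group.

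Neutrophil markers had summed levels of 5.49 and 5.62 after 24 h, against 5.49 and 5.44 untreated, with 2 of 12 that rose and 1 that fell, and 0 rose without any 1 of 3 of the arrays. Lymphocyte markers had 2.99 and 3.09 after 24 h, against 2.86 and 2.85 untreated, with Cd3g and Cd8a below the filter in all groups. Of 12 tested 3 rose and 2 fell. Mast cell, basophil and eosinophil markers summed to 0.59 and 0.67 after 24 h, against 0.14 and -0.03 untreated. Of 6 tested 1 rose, Ccr3 by 1.20, and 2 fell. The median of these markers was -0.54, or -0.31 with members at background held at their bounds, so it lay opposite to the sum. Erythroid and platelet markers summed to 5.54 and 5.42 after 24 h, against 5.99 and 6.03 untreated, and Pf4 fell by 0.54, while Alas2 and Klf1 did not pass the signal filter. Of 6 tested 2 rose and 3 fell, with changes from -3.08 to 2.90. Over all genes 23.6% rose and 26.4% fell. In bulk RNA, more cells of a type and more RNA per cell cannot be told apart, and the part of these cells in the results above was not tested.

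Stromal and osteoclast markers had the largest difference in sum, 5.38 and 5.03 after 24 h, against 2.91 and 2.66 untreated. It came with Acp5, tartrate-resistant acid phosphatase, which had 5.26 and 4.89 after 24 h, against 1.94 and 1.53 untreated (3.34 ± 0.23). Of 10 markers tested 2 rose and 2 fell, beside 23.6% and 26.4% of all genes. Dcn, a stromal marker, had -1.70 and -1.57 after 24 h, against -4.30 and -4.38 untreated (2.70 ± 0.19). Acta2 fell by 1.19. The collagen genes Col1a1, Col1a2 and Col3a1 did not pass the threshold (changes of -0.01, 0.09 and -0.25). Dcstamp, needed for osteoclast fusion, had -5.02 and -4.85 after 24 h, against -1.77 and -1.32 untreated (-3.39 ± 0.58).

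The comparison with 3 h of LPS places these changes in time. Between 24 h and 3 h 12083 of 22977 genes (52.6%) passed the threshold, 5909 higher after 24 h (25.7%) and 6174 lower (26.9%). Genes higher after 24 h than in both earlier groups numbered 2892 (12.6%), and genes that were above untreated but below 3 h numbered 732 (3.19%). Lower than both were 3456 (15.0%), and 846 (3.68%) were below untreated but above 3 h.

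The largest differences above 3 h included Ly6 genes and cytokine receptors. Ly6a had -5.29 and -5.08 untreated, -4.28 and -4.01 after 3 h and 2.75 and 2.72 after 24 h, so that 24 h was 6.88 ± 0.22 above 3 h (adjusted p = 2.74e-07). Ly6c1, a marker of inflammatory monocytes with its neighbours, had -3.51 and -3.41 untreated, -2.63 and -2.26 after 3 h and 3.92 and 3.99 after 24 h. Il12rb1, the receptor subunit shared by interleukin-12 and interleukin-23, had -1.99 and -2.03 untreated, -2.07 and -1.80 after 3 h and 3.33 and 3.46 after 24 h (24 h minus 3 h 5.33 ± 0.13). Its partner Il23r was low at both earlier times (-6.38 and -6.91 after 3 h). Other genes named by the rule were Ly6f, Gm9733, Gm13986, F8, Rhov and C130050O18Rik.

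The 10 largest declines from 3 h included genes of cytokines and chemokines. Olr1, a scavenger receptor for oxidised lipoprotein, had 2.89 and 2.49 after 3 h and was at background in the other wildtype groups. The chemokine gene Cxcl3 had the same pattern, with 1.44 and 1.33 after 3 h. Il12b, a subunit of interleukin-12 and interleukin-23, had -7.03 and -6.11 after 24 h, with 1 of these arrays well above background, against 1.11 and 1.02 after 3 h. Il6 had -3.79 and -3.60 after 24 h, against 3.59 and 3.92 after 3 h, a difference of -7.45 ± 0.20 (adjusted p = 1.29e-07). Rnd1, Cxcl1, Shisa3, Mycl, Gja1 and Rnf125 were the others.

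Gene groups differed in their course. Of 25 cytokine genes 18 were lower after 24 h than after 3 h, as were 20 of 24 NF-kB genes, 13 of 22 chemokines and 10 of 15 costimulatory ligands. Of 19 class I genes 18 were higher after 24 h than after 3 h, as were 9 of 12 class II genes and 11 of 21 complement genes. Antiviral genes were divided, with 19 of 34 higher and 8 lower, and GTPases with 7 of 16 higher and 4 lower. Of the sterol genes 14 of 23 were lower after 24 h than after 3 h. Some chemokines did not pass the threshold between the times, with Cxcl9 at 0.82 ± 0.76 (adjusted p = 0.395) and Ccl5 at 0.31 (adjusted p = 0.264), and Ccl8 was higher after 24 h by 2.83 ± 0.21.

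**Figure D4:**
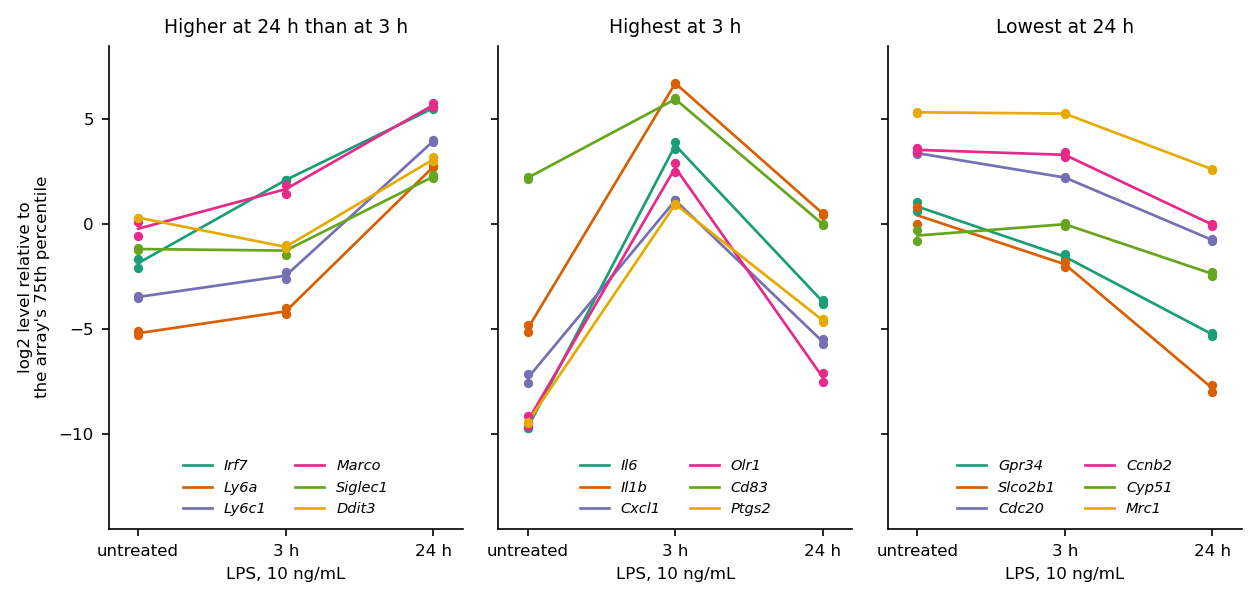
Log2 levels of 18 genes in untreated wildtype cells and after 3 h and 24 h of LPS, with points for the 2 arrays of a group and lines through the means. Ly6a and Ly6c1 climb between 3 h and 24 h (left), Il6, Il1b, Cxcl1, Olr1, Cd83 and Ptgs2 peak at 3 h (middle), and Gpr34, Slco2b1, Cdc20, Ccnb2, Cyp51 and Mrc1 are lowest at 24 h (right); levels under about -7 are at background.

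The FOXO list holds genes of FOXO factors and genes lowered early by LPS, and was drawn up with results at 3 h known. Of 16 members 10 were lower than untreated after 3 h and 9 after 24 h, and 8 were higher after 24 h than after 3 h. The shares over all genes were 23.4%, 26.4% and 25.7% in the same order. Because members were chosen partly for low values at 3 h, these counts are a description and no test. Bmf had 1.29 and 0.44 untreated, -4.64 and -4.94 after 3 h and -1.63 and -1.68 after 24 h. Cxcr4 had 0.26 and -0.16 untreated, -5.17 and -5.04 after 3 h and -3.58 and -3.67 after 24 h. After 24 h both lay between the untreated and the 3 h levels, with no overlap.

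The response to 24 h of LPS was also set against that of knockout cells. The difference of the responses passed the threshold for 75 of 22973 genes (0.326%), with 35 higher (0.152%) and 40 lower (0.174%) in knockout cells. The count moved between 0 and 278 over the alternatives, and was 2 with only the groups compared and 151 with the mouse as a block, so it depends on these choices. Most lists held no such gene, among them all of the interferon, class I, sterol and mitosis lists. With 0.326% of all genes called, lists of this size would seldom hold one. Their lack of called genes therefore does not show that these responses were alike in the genotypes.

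The rule named 22 genes with a called difference, and 12 of them were detected on both arrays of all 4 groups. In 11 of these 12 the genotypes lay further apart untreated than after 24 h, a description with no test of its own. Il1b had -0.27 and 0.28 in knockout and 0.46 and 0.54 in wildtype cells after 24 h, but -0.17 and -1.39 in knockout and -4.80 and -5.14 in wildtype cells untreated. The response was 0.78 in knockout and 5.47 in wildtype cells, a difference of -4.69 ± 0.50 (adjusted p = 0.0279). C3 had 6.48 and 6.61 in knockout and 6.32 and 6.44 in wildtype cells after 24 h, and 1.61 and 1.11 in knockout and -0.66 and -0.75 in wildtype cells untreated (-1.90 ± 0.24, adjusted p = 0.0395). In both genes the genotypes lay close together after 24 h and apart when untreated.

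Cxcl10 showed the same arrangement, with 7.13 and 7.19 in knockout and 6.58 and 6.52 in wildtype cells after 24 h, and 0.38 and 0.43 in knockout and -1.71 and -2.28 in wildtype cells untreated (-1.79 ± 0.23). Cd200, which encodes the ligand of an inhibitory receptor, had 0.76 and 0.97 in knockout and 0.86 and 0.95 in wildtype cells after 24 h, and -4.37 and -3.97 in knockout and -1.64 and -1.62 in wildtype cells untreated (2.51 ± 0.23, adjusted p = 0.0201).

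**Figure D5:**
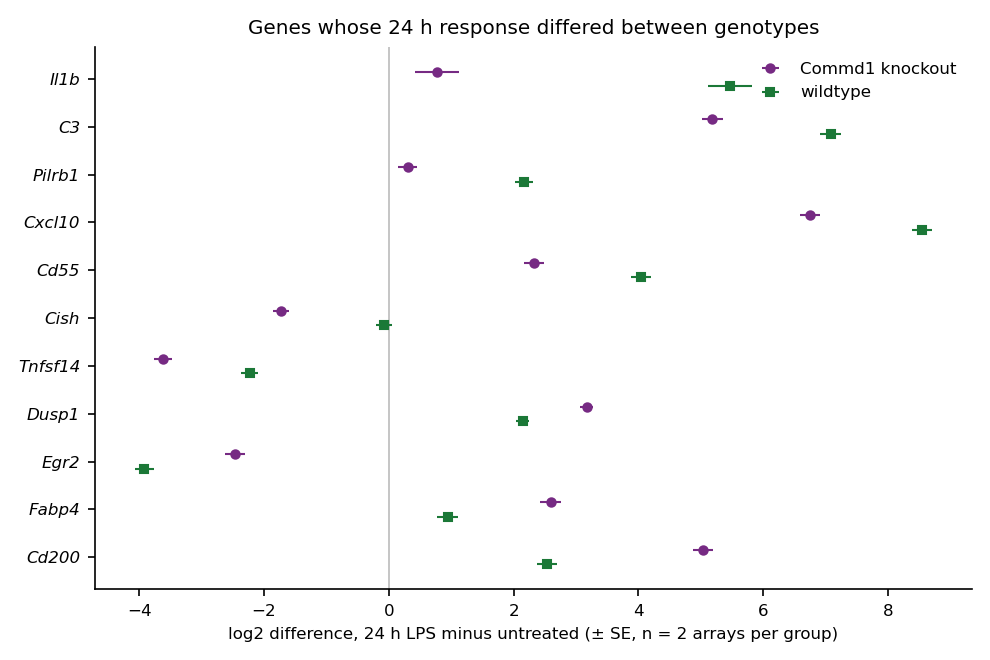
Response to 24 h of LPS (log2, 24 h minus untreated, ± SE, n = 2 arrays per group) in Commd1 knockout (purple circles) and wildtype cells (green squares) for 11 of the 12 named genes with a called difference that were detected in all 4 groups. Responses of Il1b, C3, Pilrb1, Cxcl10 and Cd55 were smaller in knockout cells (0.78 against 5.47 for Il1b), and those of Dusp1, Fabp4 and Cd200 larger (5.04 against 2.53 for Cd200).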

How the data were processed

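RNA of 12 samples from 4 mice was measured on single-colour Agilent arrays of a mouse 60-mer design. The authors' deposited scanner files hold intensity values per spot from Agilent Feature Extraction 10.7.3.1, background-subtracted and detrended within the array per the file headers. The deposited series matrix holds log2 values of the same arrays, equal to the processed signals minus a constant per array apart from dim probes raised to a floor, so its scale was found from the values, and it served only as an alternative.

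From the intensity values, log2 of the processed signal minus the array's 75th percentile was computed. Control and outlier spots were left out and copies of a probe averaged. Probes were named through RefSeq by accession, symbol or synonym (78.6% of 39429), and otherwise kept the name of the design. The signal filter kept 28425 probes, those detected well above background by each array of some group, and a gene with several probes was represented by its brightest. limma 3.58.1 in R 4.3.3 fitted 6 group means to all 12 arrays (6 residual degrees of freedom), with Benjamini-Hochberg adjustment and a threshold of 0.05, two-sided. The same fit was also run on simulated data, whose levels and spreads were taken from the main fit. Where neither array of a group detected a gene, a bound replaced the fold. Arrays have no counts, and their number, 2 per group, limits the precision.

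Samples were grouped by title. Per the labels each mouse gave a sample at every time, so replicate numbers mark a mouse within a genotype, and deviations from the group means correlated between times of the same mouse in all 6 pairs of times (r = 0.12 to 0.35). The fit without the mouse as a block was kept as the main one.

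The members and lists were chosen with earlier results of these data known. Named genes were the 12 largest rises and falls, the 8 largest bounds each way, up to 6 called members per direction and 4 uncalled members of each of 46 lists, the 10 largest differences from 3 h each way, the 5 largest knockout differences each way, Commd1, and the genes whose promoters are shown. Cell type markers were named as such. C1ra, Fcgr2b, Gbp8, H2-D1, H2-K1, Hadha, Hif1a, Hspa5, Ifi27l2a, Il10, Myc, Nfkb2, Relb, Sdhc, Tlr4 and Tnf were named after their values were seen, as were the Cdc20 and Ccnb2 promoters. Alternatives changed the background correction, scaling, filter, probe rule, samples, mouse block and moderation, and left out each array. Promoters come from RefSeq (GRCm38.p6). Exon and UTR positions of probes were not analysed here. Some genes that the rule names are not reported here.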

Additional observations from a re-analysis of the deposited data

Results flagged for a closer look

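The response to 24 h of LPS differed between knockout and wildtype cells, by limma's test of the difference itself, in 22 of the genes named by the rule, of which 20 are reported here. Values are the knockout response minus the wildtype response (log2), each with an adjusted p under 0.05.

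Smaller or more negative responses in knockout cells were found for Il1b (-4.69), C3 (-1.90), Pilrb1 (-1.87), Cxcl10 (-1.79), Cd55 (-1.72), Cish (-1.65) and Tnfsf14 (-1.39). Larger or less negative responses were found for Cd200 (2.51), Fabp4 (1.65), Egr2 (1.45) and Dusp1 (1.02). In the other 9 genes at least 1 of the 4 groups was not detected on both arrays, so the sizes depend on background signals. They were Vmn1r235 (-4.83), Ppm1n (-3.93), Hpgd (-2.17), Arg2 (-2.08), Cxcl3 (-1.92), Acot1 (-1.46), Chsy3 (3.93), Ttll2 (3.21) and Acot4 (2.66).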

How the results depend on the processing

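The number of genes past the threshold between 24 h and untreated was 11481 and ran from 10382 to 14485 over the alternatives that kept all arrays, and from 8719 to 9677 without 1 array. With the mouse as a replicate block it was 11815. The share of calls that were higher was 47.2%, against 64.5% with normexp. Of 408 named genes that were called, 376 to 405 kept call and direction in the alternatives that tested all of them with all arrays, and 373 to 381 without 1 array. Between 24 h and 3 h the block gave 12432 genes, against 12083.

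The knockout comparison called 75 genes. It called 246 with normexp, 243 with probes detected on all arrays, 181 with the deposited matrix, 278 with an intensity trend, 151 with the replicate block and 2 with only the groups compared. It called 0 by limma with no filter, where 3395 genes had an unadjusted p under 0.05. Without 1 array it called 4 (untreated knockout of mouse 3) to 239 (24 h knockout of mouse 3). The cause of these shifts was not tested.

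Signs turned for C6 (0.15 with normexp, 0.20 on the common spike-in slope), Clec5a (0.12 with normexp), Klrb1c (0.37 with normexp), Mcpt4 (0.30 with normexp, 0.20 with the matrix, 0.10 on the slope), Tslp (0.0161 with normexp), Fabp5 (-0.091 on the slope), Treml4 (0.0886 on the slope) and Tpx2 (-0.17 with probes averaged). The cause was not tested.

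Limits are the 2 mice per group, the slide that each time shares, and signals at background, where sizes are bounds.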
